A study of Mus musculus with 12 samples.

Results

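The genes of the epidermal growth factor (EGF) receptors, their ligands and a feedback inhibitor were followed across RNA sequencing libraries of C18-4 cells. The group was chosen by symbol and holds 10 of the 17576 genes in the table: the receptors Egfr, Erbb2 and Erbb3, the ligands Hbegf, Ereg, Areg, Tgfa, Btc and Epgn, and the inhibitor Errfi1. Of these, 9 reached a value of 1 in at least 3 libraries and were tested among 11360 genes, and Epgn did not.

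C18-4 is a line established from mouse type A spermatogonia, and the labels give its strain as IRC mouse. Total RNA was sequenced in 12 libraries, 3 for each of the groups named 3NC, 5NC, 8276KD and 8276OV. The manipulated groups received a virus that inhibits (8276KD) or overexpresses (8276OV) the long noncoding RNA lncRNA8276, and the meaning of the names 3NC and 5NC is left unexplained in the labels. They were taken as the control viruses of 8276KD and 8276OV respectively, because the study's design text names them in that order beside those groups. The level of lncRNA8276 was not analysed here, so the group labels have no check from the targeted RNA. Whether the 3 libraries of a group stem from different cultures is not stated, so p-values reflect only library-to-library spread, possibly of technical origin.

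The EGF ligands are made as membrane-anchored precursors that metalloproteases release from the cell surface. A released ligand binds EGFR, which pairs with another EGFR or with ERBB2, ERBB3 or ERBB4 and signals through RAS and ERK and through PI3 kinase. ERBB2 has no known ligand and acts as a partner, ERBB3 has little kinase activity of its own and binds neuregulins, and ERRFI1 (also called MIG6) binds the kinase domains of EGFR and ERBB2 and blocks them. EGF is a common supplement of spermatogonial stem cell cultures, and neuregulins act on spermatogonia.

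Column sums of the 12 libraries ranged from 533099 to 561940, the steps between low values implied 11.7 to 13.3 M fragments per library, and 10929 to 11165 genes had a value of at least 1. Pearson's r of log2(value + 1) was 0.993 to 0.998 within groups and 0.951 to 0.988 between them (across genes, not independent replicates). Of 15 markers of germ cells and stem spermatogonia in the table, 11 stayed below 1 in all 12 libraries: Gfra1, the GDNF co-receptor, reached at most 0.17, Zbtb16 at most 0.04 and Ddx4 at most 0.03, and Sohlh1 was listed at 0. The 4 that reached 1 were Uchl1 (73.0 to 139.25), Itga6 (3.22 to 6.08), Etv5 (2.26 to 7.89) and Id4 (at most 2.09), so most defining markers of the labelled cell type were absent or near 0. Some genes of other cell types were high, with Upk3b (an epithelial and mesothelial marker) at 232.68 to 803.99, Krt19 at 176.97 to 374.38 and Col1a1 at 236.59 to 382.87. Of these lists, 2 of 10 epithelial and mesothelial and 3 of 11 myoid and fibroblast markers stayed below 1 in all 12 libraries. The highest Sertoli cell marker was Wt1, at 49.0 to 62.8, but Clu and Gata4, the next, reached at most 7.31 and 6.77. Of the 10 Sertoli markers in the table, 5 stayed below 1 in all 12 libraries. Leydig, macrophage and endothelial markers were low, led by Star at up to 1.32, Cd68 at up to 5.61 and Kdr at up to 0.60, with Cdh5 listed at 0. In such bulk libraries fewer cells of a type and less RNA per cell cannot be told apart.

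The ligand genes Epgn, Ereg, Areg and Btc stand in a row on mouse chromosome 5 (GRCm38.p6 RefSeq coordinates), with no other protein-coding gene between them over 375.5 kb. Epgn lies at chr5:91027517-91035212, Ereg at chr5:91074617-91093649 and Areg at chr5:91139599-91148432, all on the plus strand, and Btc lies at chr5:91357261-91402994 on the minus strand. The gaps between neighbours were 39.4, 45.95 and 208.8 kb. Outside this row are Egfr at chr11:16752203-16913907, Erbb2 at chr11:98412484-98437716, Erbb3 at chr10:128567523-128589635, Tgfa at chr6:86195038-86275744 and Errfi1 at chr4:150853796-150868889. Exons of Erbb2 overlap Mien1, those of Ereg overlap Gm19610 and those of Tgfa overlap Gm43917, each on the opposite strand. The handling of strand is not given in the sources used here, so reads of such partners could have been counted for either gene. Mien1 had a mean of 51.13, 50.92, 53.69 and 50.79 in 3NC, 5NC, 8276KD and 8276OV, against 10.5 for Erbb2 in its highest group.

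Promoters of 3 genes are printed here, each the 250 bases before the annotated start: Areg and Errfi1, both lower in 5NC than in 3NC and both with 2 core motifs in the window, and Btc, the neighbour of Areg, which did not pass the test between 5NC and 3NC. No promoter entry was matched for Erbb3, nor for Ereg and Hbegf, which were also lower in 5NC than in 3NC. Areg and Errfi1 were chosen after their motifs were seen. The printed windows therefore cannot show whether motif and level go together, and this was not tested. Capitals mark the cAMP response element TGACGTCA, the TATA box TATAAA and the GC box GGGCGG or its reverse complement CCGCCC. The windows are chr5:91139349-91139598 (plus strand) for Areg, chr4:150854820-150855069 (plus strand) for the second of the annotated starts of Errfi1, 1274 bases downstream of the first, and chr5:91402995-91403244 (minus strand) for Btc.
Areg: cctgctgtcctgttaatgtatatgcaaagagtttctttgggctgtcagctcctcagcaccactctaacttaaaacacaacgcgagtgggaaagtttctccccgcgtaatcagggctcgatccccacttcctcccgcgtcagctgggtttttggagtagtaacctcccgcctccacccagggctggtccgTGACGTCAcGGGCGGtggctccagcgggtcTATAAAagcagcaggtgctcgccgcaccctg
Errfi1: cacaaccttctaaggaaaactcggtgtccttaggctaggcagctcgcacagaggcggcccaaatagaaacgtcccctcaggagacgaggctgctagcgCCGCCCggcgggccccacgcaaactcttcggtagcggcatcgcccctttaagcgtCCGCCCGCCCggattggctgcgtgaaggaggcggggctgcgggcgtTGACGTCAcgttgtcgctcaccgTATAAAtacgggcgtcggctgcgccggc
Btc: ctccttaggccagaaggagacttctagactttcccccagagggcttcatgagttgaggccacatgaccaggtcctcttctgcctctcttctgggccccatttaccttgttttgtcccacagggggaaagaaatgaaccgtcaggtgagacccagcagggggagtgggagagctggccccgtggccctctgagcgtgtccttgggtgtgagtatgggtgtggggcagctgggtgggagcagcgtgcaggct

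Counted back from the start site, Areg held the cAMP response element at -61 to -54, a GC box at -52 to -47 and the TATA box at -31 to -26. Errfi1 held the same element at -51 to -44, the TATA box at -28 to -23 and 3 GC boxes, of which 2 overlap. The Btc window held none of the motifs searched, which were these 3, the AP-1 site (TGACTCA or TGAGTCA) and the CArG box, on both strands. Among 32851 RefSeq promoters of the same length, the cAMP response element occurred in 1.55%, the TATA box in 12.4%, the GC box in 32.7%, the AP-1 site in 4.46% and the CArG box in 1.47%. Both the cAMP response element and the TATA box occurred in 39 of them (0.119%). The upstream start of Errfi1 held none of these motifs, nor did the Erbb2 window. Those of Egfr and Tgfa held only GC boxes, and that of Epgn a TATA box further upstream, at -86 to -81. Tgfa, without the cAMP response element or TATA box, was also lower in 5NC than in 3NC (limma, adjusted p = 0.00644). A match describes these letters and is not evidence of a bound site.

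Per transcript length, Hbegf was the most abundant of the 10 genes and Epgn the least. The values were taken to be FPKM, a count of fragments relative to transcript length and library depth. Means over the 12 libraries were 15.6 for Hbegf, 8.81 for Erbb2, 7.19 for Egfr, 6.01 for Errfi1, 3.29 for Ereg, 2.44 for Erbb3, 2.27 for Tgfa, 2.03 for Areg, 0.903 for Btc and 0.048 for Epgn. Among 30 receptor tyrosine kinases compared, Erbb2 ranked 10th and Egfr 11th, below Axl (72.7), Ddr1 (58.5) and Epha2 (52.7), and Erbb3 ranked 19th. The plot of levels by library shows each gene in the 4 groups.

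**Figure D1:**
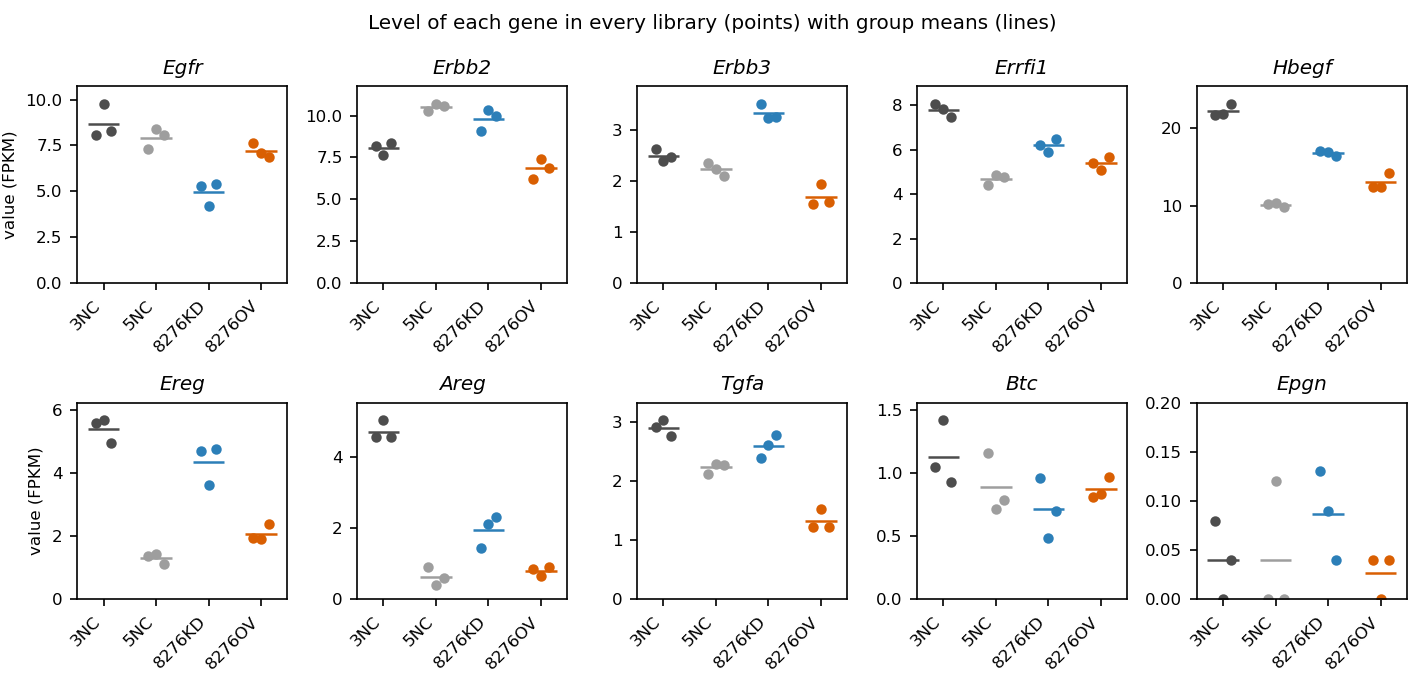
Level of each of the 10 genes (y axis, FPKM) in the 4 groups (x axis); points are libraries, 3 per group, and lines are group means. Hbegf, Ereg and Errfi1 fall in the order 3NC, 8276KD, 8276OV, 5NC with no overlap between groups, while Egfr is lowest in 8276KD, at 4.18 to 5.42, and Erbb2, Erbb3 and Tgfa are lowest in 8276OV.

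Hbegf (chr18:36504927-36515805) encodes heparin-binding EGF-like growth factor, a ligand of EGFR and ERBB4. Its values were 21.68, 21.84 and 23.18 in 3NC, 10.16, 10.37 and 9.86 in 5NC, 17.11, 17 and 16.49 in 8276KD, and 12.43, 12.45 and 14.26 in 8276OV. The 4 groups did not overlap, and 3NC was highest. Each neighbour in the order 3NC, 8276KD, 8276OV, 5NC differed from the next (limma, adjusted p = 0.000194, 0.000131 and 0.000145).

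Ereg encodes epiregulin, also a ligand of EGFR and ERBB4. Its values were 5.58, 5.67 and 4.95 in 3NC, 1.38, 1.45 and 1.11 in 5NC, 4.69, 3.63 and 4.75 in 8276KD, and 1.96, 1.9 and 2.4 in 8276OV. The order of the groups was that of Hbegf, again with no overlap, but 3NC and 8276KD lay close together. That step had an adjusted p of 0.0492, against 1.19e-05 between 8276KD and 8276OV and 0.00172 between 8276OV and 5NC. The values stood for an estimated 259 to 296 fragments in 3NC, 191 to 260 in 8276KD, 95 to 116 in 8276OV and 58 to 79 in 5NC.

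Areg encodes amphiregulin, a ligand of EGFR. It read 4.55, 5.03 and 4.56 in 3NC, 0.9, 0.4 and 0.59 in 5NC, 1.45, 2.12 and 2.31 in 8276KD, and 0.85, 0.65 and 0.91 in 8276OV. The 3NC libraries stood above all others and the 8276KD libraries above the rest, while 8276OV and 5NC overlapped and did not pass the test against each other (adjusted p = 0.27). Areg spanned 12.6-fold from its lowest to its highest library and reached 1 in only 6 of the 12. Its 5NC values stood for an estimated 6 to 13 fragments and those of 3NC for 70 to 76, so its low end was thinly sampled.

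Tgfa encodes transforming growth factor alpha, an EGFR ligand. It read 2.92, 3.03 and 2.76 in 3NC, 2.12, 2.3 and 2.28 in 5NC, 2.4, 2.61 and 2.79 in 8276KD, and 1.23, 1.53 and 1.23 in 8276OV. The 8276OV libraries were below all others, and 8276KD lay between the control groups without passing the test against either (adjusted p = 0.223 against 3NC and 0.0907 against 5NC). Btc, which encodes betacellulin, read 1.05, 1.42 and 0.93 in 3NC, 1.16, 0.72 and 0.79 in 5NC, 0.96, 0.49 and 0.7 in 8276KD, and 0.81, 0.84 and 0.97 in 8276OV. Its groups overlapped, and no neighbours in the order of its means passed the test. Epgn, which encodes epigen, lay between 0 and 0.13, at most an estimated 3 fragments in a library, so no difference was detectable at this depth.

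Summed over the 6 ligands, the level was 36.4 ± 0.565 in 3NC, 15.2 ± 0.555 in 5NC, 26.6 ± 0.585 in 8276KD and 18.2 ± 1.42 in 8276OV (SD, n = 3 each). Hbegf made up 61.1% of this sum in 3NC, 66.5% in 5NC, 63.5% in 8276KD and 71.8% in 8276OV, so the sum mostly followed that gene.

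Egfr encodes the receptor for all of these ligands. It read 8.04, 9.76 and 8.26 in 3NC, 7.3, 8.39 and 8.04 in 5NC, 5.3, 4.18 and 5.42 in 8276KD, and 7.62, 7.11 and 6.88 in 8276OV. The 8276KD libraries stood below all others. The other groups followed each other in the order 3NC, 5NC, 8276OV with steps that did not pass the test (adjusted p = 0.286 and 0.251). Between the ends of that order, 8276OV was lower than 3NC without overlap (limma, adjusted p = 0.0298).

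Erbb2, the receptor without a known ligand, read 8.16, 7.64 and 8.37 in 3NC, 10.28, 10.7 and 10.57 in 5NC, 9.11, 10.33 and 9.97 in 8276KD, and 6.24, 7.39 and 6.9 in 8276OV. It was highest in 5NC and 8276KD, which overlapped and did not pass the test against each other (adjusted p = 0.246), and lowest in 8276OV. Erbb3, a neuregulin receptor, read 2.63, 2.4 and 2.46 in 3NC, 2.35, 2.24 and 2.09 in 5NC, 3.51, 3.24 and 3.26 in 8276KD, and 1.55, 1.94 and 1.59 in 8276OV. Its 4 groups did not overlap, 8276KD being highest and 8276OV lowest, and the control groups did not pass the test against each other (adjusted p = 0.188).

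The ratio of Erbb2 to Egfr was 0.937 ± 0.134 in 3NC, 1.33 ± 0.0682 in 5NC, 2.01 ± 0.404 in 8276KD and 0.954 ± 0.118 in 8276OV (SD, n = 3 each). It ranged from 1.72 to 2.47 in the 8276KD libraries and stayed at or below 1.41 in every other library. These ratios are of values as deposited, and the transcripts differ in GC content (57.3% for Erbb2, 44.4% for Egfr). In 8276OV against 5NC, GC correction, described below, moved the log2 fold change of Erbb2 from -0.56 to -0.002. That of Egfr moved from -0.12 to -0.33. Corrected, Egfr thus fell more than Erbb2, so the lower ratio in 8276OV than in 5NC depends on the GC trend and turns direction without it. Against 3NC the corrected fold changes in 8276OV were 0.28 for Erbb2 and -0.46 for Egfr, so the likeness of these 2 ratios depends on it too. The ratio itself was not tested.

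Errfi1, the feedback inhibitor, read 8.06, 7.83 and 7.45 in 3NC, 4.43, 4.84 and 4.75 in 5NC, 6.21, 5.88 and 6.49 in 8276KD, and 5.39, 5.09 and 5.68 in 8276OV. It took the group order of Hbegf and Ereg without overlap, and each step passed the test (adjusted p = 0.00238, 0.0236 and 0.0221).

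Among ERBB genes outside the group, Nrg1, which encodes the ERBB3 and ERBB4 ligand neuregulin 1, read 4.99, 5.9 and 4.34 in 3NC, 9.07, 9.56 and 10.19 in 5NC, 2.65, 3.53 and 3.21 in 8276KD, and 8.04, 8.42 and 8.37 in 8276OV. It was high in the groups where Hbegf, Ereg and Areg were low, and lowest in 8276KD. Erbb4 reached at most 0.17 and Egf at most 0.69, and neither was tested.

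Between the control groups, the ligands Hbegf, Ereg and Areg and the inhibitor Errfi1 were lower in 5NC than in 3NC. Mean levels in 3NC exceeded those in 5NC by 7.48-fold for Areg, 4.11-fold for Ereg, 2.19-fold for Hbegf and 1.66-fold for Errfi1. All fold changes below are log2 differences of value + 1 and understate those of low genes. Areg fell by 1.82 (SE 0.124, limma, adjusted p = 4.15e-08) and Ereg by 1.47 (SE 0.0985, adjusted p = 3.69e-08). Hbegf fell by 1.06 (SE 0.0577, adjusted p = 4.59e-09) and Errfi1 by 0.63 (SE 0.0614, adjusted p = 1.43e-06). Tgfa fell by 0.27 (SE 0.0734, adjusted p = 0.00644), and Erbb2 rose by 0.35 (SE 0.0661, adjusted p = 0.000552). Egfr (-0.12), Erbb3 (-0.12) and Btc (-0.17) did not pass the test.

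Of the 9 genes tested, 6 were called between 5NC and 3NC, 1 higher and 5 lower, where 56.5% of all genes were called, 30.6% higher and 25.9% lower. The groups did not overlap for 7 of the 9, against 69.5% of all genes. The median log2 fold change was -0.27 over the 9 genes and 0.022 over all genes. With 3 libraries a side, the smallest p of an exact permutation test is 0.1, so each call here and in the following comparisons rests on the spread shared across genes in the fit. Marker genes of other cell types differed in the same comparison. The summed level of 10 epithelial and mesothelial markers was 631.9 to 648.2 in 3NC and 1162 to 1181 in 5NC (5 of 8 tested called higher, 1 lower), that of 11 myoid and fibroblast markers 386.5 to 399.2 and 694.5 to 702.8 (4 of 8 higher, 3 lower), and that of 6 macrophage markers 4.23 to 6.03 and 2.36 to 2.6. The last sum was mostly Cd68, the only 1 of its list tested, which was called lower. The other 5 stayed below 1 in all 12 libraries. The part of these markers in the result was not tested.

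Under knockdown, Egfr and the ligands Areg and Hbegf were lower and Erbb2 and Erbb3 were higher in 8276KD than in 3NC. Egfr fell by 0.70 (limma, SE 0.0909, adjusted p = 5.29e-05), from a mean of 8.69 ± 0.936 to 4.97 ± 0.684 (SD, n = 3 each). Areg fell by 0.96 (adjusted p = 4.99e-05), from 4.71 ± 0.274 to 1.96 ± 0.452, and Hbegf by 0.38 (adjusted p = 0.000194), from 22.2 ± 0.824 to 16.9 ± 0.331. Errfi1 fell by 0.29 (adjusted p = 0.00238). Erbb3 rose by 0.31 (adjusted p = 0.00417) and Erbb2 by 0.25 (adjusted p = 0.00829). Tgfa did not pass the test (-0.12, adjusted p = 0.223). Ereg (-0.26, adjusted p = 0.0492) and Btc (-0.32, adjusted p = 0.0494) passed it barely.

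Of the 9 genes, 8 were called in 8276KD against 3NC, 2 higher and 6 lower, where 39.4% of all genes were called, 20% higher and 19.5% lower. The groups did not overlap for 7 of the 9, against 49.6% of all genes, and the median log2 fold change was -0.29, against -0.005 over all genes. The calls of Ereg and Btc were lost without 3NC replicate 1 (-0.24 and -0.34), without 3NC replicate 2 (-0.23 and -0.22) and without 8276KD replicate 2 (-0.16 and -0.22), and that of Btc also without 8276KD replicate 3 (-0.31). The summed epithelial and mesothelial markers were 834.4 to 970.6 in 8276KD (6 of 8 tested called higher than in 3NC, 1 lower) and the myoid and fibroblast markers 454.6 to 533.9 (2 higher, 2 lower), and their part in the result was not tested.

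The direction in 8276KD turned with the control group for Areg, Ereg, Hbegf and Errfi1, but not for Egfr or Erbb3. Against 5NC, Egfr was again lower (-0.58, limma, adjusted p = 0.000122) and Erbb3 again higher (0.43, adjusted p = 0.000245). Areg, Hbegf, Ereg and Errfi1 were higher than in 5NC, by 0.86 (adjusted p = 6.19e-05), 0.68 (adjusted p = 4.86e-07), 1.21 (adjusted p = 3.61e-07) and 0.34 (adjusted p = 0.000378), where they had been lower than in 3NC. Erbb2 (-0.094), Tgfa (0.15) and Btc (-0.14) did not pass the test against 5NC. In all, 6 of the 9 were called, 5 higher and 1 lower, where 55.3% of all genes were called, 24.7% higher and 30.5% lower. The groups did not overlap for 7 of the 9, against 60% of all genes. The comparisons share the 8276KD libraries. Nrg1 was lower in 8276KD than in either control group (-0.56 against 3NC, adjusted p = 0.000473, and -1.37 against 5NC, adjusted p = 7.6e-08).

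Under overexpression, Erbb2, Erbb3 and Tgfa were lower and Hbegf, Ereg and Errfi1 higher in 8276OV than in 5NC. Erbb2 fell by 0.56 (limma, SE 0.0661, adjusted p = 6.17e-06), from 10.5 ± 0.215 to 6.84 ± 0.577 (SD, n = 3 each). Tgfa fell by 0.47 (adjusted p = 5.68e-05), from 2.23 ± 0.0987 to 1.33 ± 0.173, and Erbb3 by 0.26 (adjusted p = 0.00484). Hbegf rose by 0.33 (adjusted p = 0.000145), from 10.1 ± 0.256 to 13.1 ± 1.05, Ereg by 0.42 (adjusted p = 0.00172) and Errfi1 by 0.17 (adjusted p = 0.0221). Egfr (-0.12, adjusted p = 0.251), Areg (0.15, adjusted p = 0.27) and Btc (-0.007, adjusted p = 0.963) did not pass the test.

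Of the 9 genes, 6 were called in 8276OV against 5NC, 3 higher and 3 lower, where 74.4% of all genes were called, 30.3% higher and 44.1% lower. The groups did not overlap for 6 of the 9, against 77.6% of all genes, so neither share exceeded that of all genes. Over all genes 3447 were called higher and 5005 lower, and after quantile normalization 4428 and 3997, with the median over all genes moving from -0.088 to 0.029. The call of Errfi1 was lost without 5NC replicate 1 (0.14), without 8276OV replicate 3 (0.14) and after scaling to equal sums (0.13), and that of Erbb3 after quantile normalization (-0.10), where Areg passed the test (0.34). After correction for GC content, described below, the calls of Erbb2 (-0.002), Erbb3, Ereg (0.052) and Errfi1 were lost. Of the 9 genes, 4 were then called, 1 higher and 3 lower (all genes 3115 and 3020 of 11197). The summed epithelial and mesothelial markers were 749.4 to 883.1 in 8276OV (0 of 8 tested called higher than in 5NC, 6 lower) and the myoid and fibroblast markers 528.2 to 605.2 (1 higher, 5 lower), and their part in the result was not tested.

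Against 3NC, Hbegf, Ereg and Errfi1 took the opposite direction. No gene of the group was called higher in 8276OV than in 3NC and 8 of the 9 were called lower, where 75.2% of all genes were called, 33.5% higher and 41.7% lower. The groups did not overlap for 8 of the 9, against 78.2% of all genes. After GC correction, described below, all 9 were called, 8 lower and Erbb2 higher (0.28, adjusted p = 0.000122). Over all 11197 genes so corrected, 3738 were called higher and 3797 lower. Areg was lower by 1.67 (limma, adjusted p = 6.68e-08), Ereg by 1.05 (adjusted p = 5.25e-07), Tgfa by 0.75 (adjusted p = 8.34e-07), Hbegf by 0.73 (adjusted p = 1.21e-07) and Errfi1 by 0.46 (adjusted p = 1.41e-05). As deposited, Erbb2 (-0.21, adjusted p = 0.0108), Erbb3 (-0.38, adjusted p = 0.000324) and Tgfa were lower than in both control groups. After GC correction this held for Tgfa (-0.64 against 3NC) but not for Erbb2, nor for Erbb3, which passed against 3NC (-0.26) and not against 5NC. So corrected, Egfr (-0.46 against 3NC and -0.33 against 5NC) and Btc (-0.55 and -0.39) were also called lower than in both control groups. The plot of fold changes sets the results with either control side by side.

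**Figure D2:**
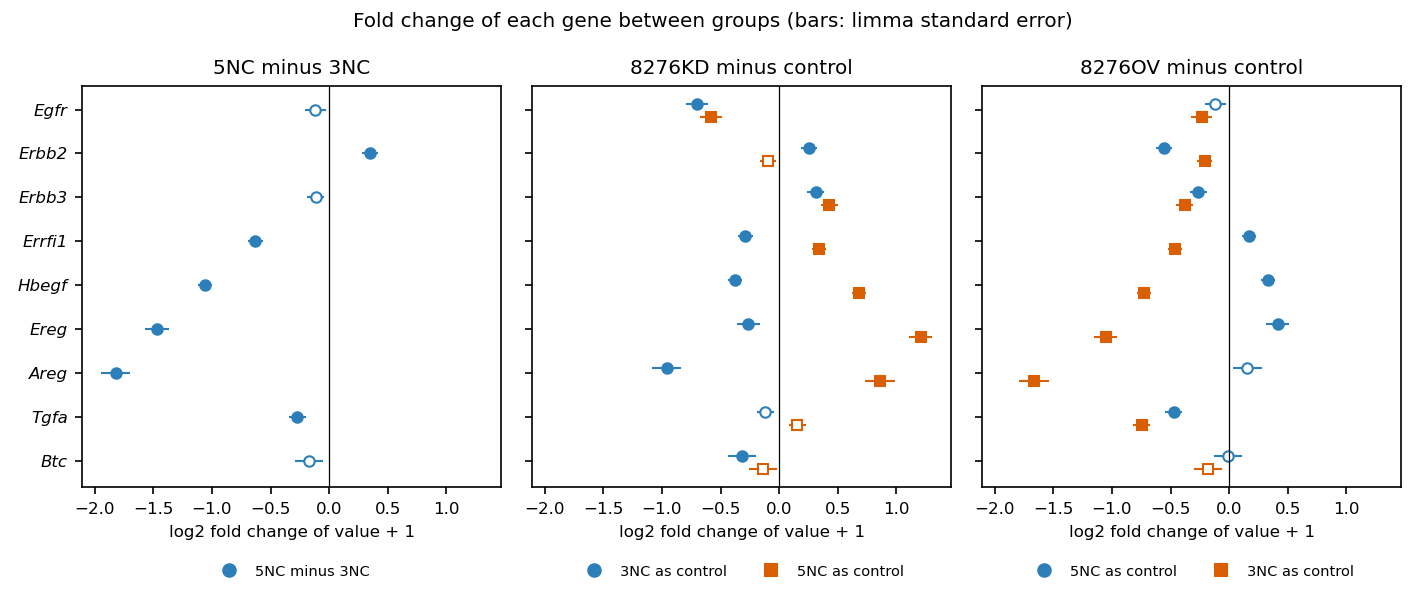
Log2 fold change of value + 1 (x axis) for the 9 genes tested (y axis) between the control groups (left), for 8276KD (middle) and for 8276OV (right). Bars are limma standard errors, filled symbols passed the test, and circles and squares mark the control used. Hbegf, Ereg, Areg and Errfi1 lie on opposite sides of 0 with the 2 controls, while Egfr in 8276KD (-0.70 and -0.58) and Erbb2, Erbb3 and Tgfa in 8276OV keep their side in the values as deposited (after GC correction Erbb2 reads -0.002 against 5NC and 0.28 against 3NC).

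The manipulated groups were also compared with each other. Erbb2, Erbb3, Areg, Ereg, Hbegf, Tgfa and Errfi1 were lower and Egfr was higher in 8276OV than in 8276KD: 1 of the 9 was called higher and 7 lower, where 68.2% of all genes were called, 29.9% higher and 38.3% lower. The groups did not overlap for 8 of the 9, against 67% of all genes. Ereg was lower by 0.79, Areg by 0.71, Erbb3 by 0.69 and Tgfa by 0.63, and Egfr was higher by 0.47 (limma, adjusted p = 0.000499). This comparison sums the difference of the effects given next and the difference between the control groups. After GC correction Erbb2 read -0.059 and lost its call (adjusted p = 0.302), and the other 6 kept theirs as lower. Over all 11197 genes so corrected, 3240 were called higher and 3423 lower.

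The overexpression effect (8276OV minus 5NC) and the knockdown effect (8276KD minus 3NC) differed for 8 of the 9 genes, 5 with a higher overexpression effect and 3 with a lower, where 60.6% of all genes were called, 24.5% higher and 36.2% lower. The difference was 1.11 for Areg (limma, SE 0.175, adjusted p = 0.00015), 0.71 for Hbegf (SE 0.0816, adjusted p = 1.51e-05), 0.68 for Ereg (SE 0.139, adjusted p = 0.00105), 0.58 for Egfr (SE 0.129, adjusted p = 0.00167) and 0.46 for Errfi1 (SE 0.0869, adjusted p = 0.000592). It was -0.81 for Erbb2 (SE 0.0935, adjusted p = 1.57e-05), -0.57 for Erbb3 (SE 0.102, adjusted p = 0.000387) and -0.36 for Tgfa (SE 0.104, adjusted p = 0.00934). Btc (0.31, adjusted p = 0.126) did not pass. Each arm carries its own control here, and the control groups differed from each other as described above. Over all genes 2778 were called higher and 4107 lower, and 3542 and 3230 after quantile normalization.

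The libraries differed in how values depended on the GC content of the transcript. Per 10 points of GC content, the deviation of a library from the gene mean changed by -0.46, -0.24 and -0.36 (log2) in 8276OV, by -0.04 to 0.18 in 8276KD and by 0.10 to 0.20 in the control groups. The longest transcripts of the 9 genes tested ranged from 37.7% GC (Btc) and 39.2% (Ereg) to 57.3% (Erbb2). After the GC trend of each library was removed, the fall of Erbb2 in 8276OV against 5NC shrank from -0.56 to -0.002 (limma, adjusted p = 0.974), and the calls of Erbb3 (-0.094, adjusted p = 0.268), Ereg (0.052, adjusted p = 0.601) and Errfi1 (0.10, adjusted p = 0.117) were lost. Hbegf (0.52) kept its call as higher and Tgfa (-0.33, adjusted p = 0.0011) as lower, and Egfr (-0.33, adjusted p = 0.00141) and Btc (-0.39, adjusted p = 0.00681) were called lower, so 4 of the 9 were called, 1 higher and 3 lower. Over all 11197 genes so corrected, 3115 were called higher and 3020 lower.

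For 8276KD against 3NC, GC correction left 8 of the 9 called in the same directions, among them Egfr at -0.74, Areg at -0.96 and Hbegf at -0.37. Over all 11197 genes so corrected, 2829 were called higher and 2589 lower. The fall of Ereg was then -0.33 (limma, adjusted p = 0.00311) and that of Btc -0.39 (adjusted p = 0.0089). Between 5NC and 3NC the same 6 genes were called with Areg at -1.85, Ereg at -1.46 and Hbegf at -1.11, and Erbb3 passed the test as well (-0.16, adjusted p = 0.0496). There 3493 of all genes were called higher and 3730 lower. The part of GC content in the differences of 8276OV was not tested beyond this correction. The plot of fold change against GC content shows both values for each gene.

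**Figure D3:**
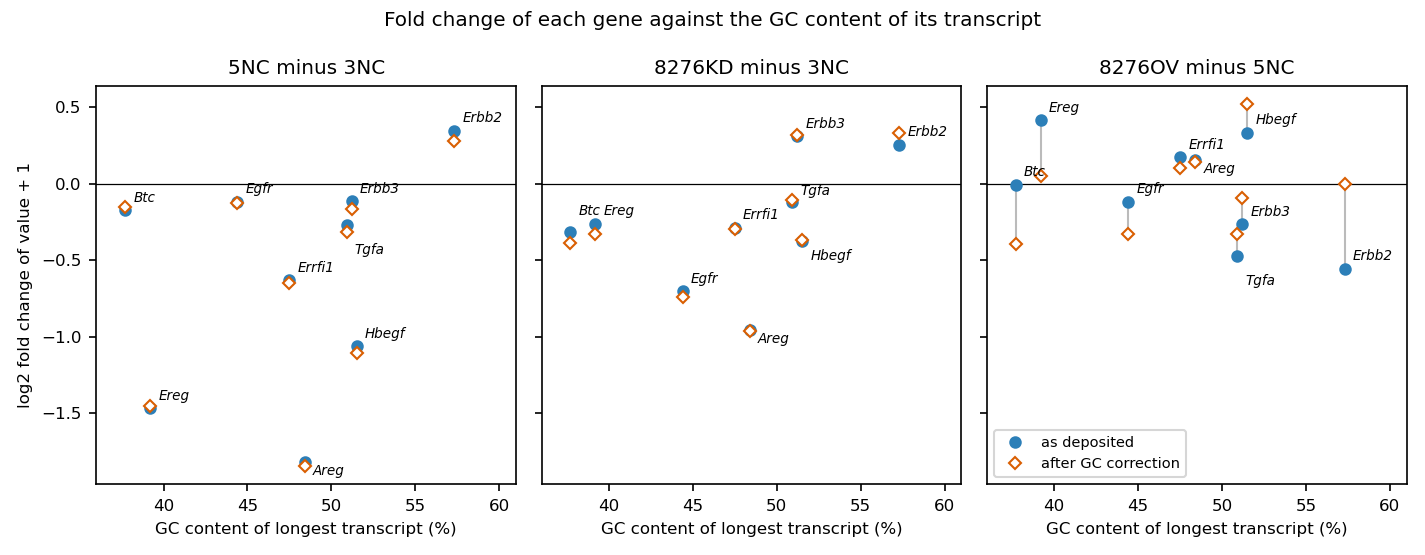
Log2 fold change of value + 1 (y axis) against the GC content of the longest transcript in percent (x axis) for the 9 genes tested, with filled circles for values as deposited and open diamonds after GC correction. The circles and diamonds nearly coincide for 5NC minus 3NC and 8276KD minus 3NC, while in 8276OV minus 5NC Erbb2 (57.3% GC) moves from -0.56 to -0.002 and Ereg (39.2% GC) from 0.42 to 0.052.

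Among the enzymes and carriers that release the ligands, 4 of 9 tested were higher and 3 lower in 8276OV than in 5NC, with a median of 0.019, a share near the 74.4% of all genes called. Adam17, the main protease of EGFR ligand release, rose by 0.29 (limma, adjusted p = 0.000511), from a mean of 25.7 to 31.7, and by 0.11 after GC correction (adjusted p = 0.0451). Its trafficking partners Rhbdf1 and Frmd8 fell by 0.77 and 0.57, and Adam15 fell by 0.73, but after GC correction these read -0.24, -0.075 and -0.14, and Frmd8 no longer passed. In 8276KD against 3NC, 2 of 9 were higher and 3 lower (all genes 20% and 19.5%): Adam9 fell by 0.36 (adjusted p = 0.000234) and Adam8 by 0.29 (adjusted p = 0.00293), Rhbdf2 rose by 0.30 (adjusted p = 0.00409), and Adam17 read -0.002 (adjusted p = 0.984). Against 5NC, Adam8 was higher instead (0.75), Rhbdf2 was again higher (0.43) and Adam9 did not pass the test (-0.093). Between 5NC and 3NC, 1 was higher and 3 lower (all genes 30.6% and 25.9%), with Adam8 the most changed of those named (-1.04, adjusted p = 1.53e-08).

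Of 27 adaptors and kinases downstream of the receptors, 5 were higher and 16 lower in 8276OV than in 5NC (all genes 30.3% and 44.1%, median -0.20 against -0.088), 6 and 6 in 8276KD against 3NC (20% and 19.5%), and 9 and 7 in 5NC against 3NC (30.6% and 25.9%). In 8276OV the ERK kinases Map2k2 and Map2k1 fell by 1.11 (limma, adjusted p = 8.7e-07) and 0.43 (adjusted p = 9.41e-07). The RAS genes split, Hras falling by 0.92 (adjusted p = 7.37e-07) and Nras rising by 0.60 (adjusted p = 3.69e-07). After GC correction these read -0.42, -0.27, -0.48 and 0.32, and 4 of the 27 were higher and 14 lower (all genes 3115 and 3020 of 11197). In 8276KD against 3NC, Gab1, a docking protein, rose by 0.51 (adjusted p = 1.73e-06), and Plcg1 and Stat3 fell by 0.53 (adjusted p = 9.62e-06) and 0.43 (adjusted p = 2.13e-05). Against 5NC, Gab1 was lower instead (-0.46), Plcg1 was again lower (-0.59) and Stat3 did not pass the test (-0.11).

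Of 23 genes of receptor turnover and inhibition, 6 were higher and 10 lower in 8276OV than in 5NC (all genes 30.3% and 44.1%). After quantile normalization 11 were higher and 9 lower (all genes 4428 and 3997 of 11360). After GC correction 2 were higher and 4 lower (all genes 3115 and 3020 of 11197). In 8276KD against 3NC, 2 were higher and 7 lower (all genes 20% and 19.5%), and in 5NC against 3NC 8 and 3 (30.6% and 25.9%). Lrig1, a transmembrane inhibitor of ERBB receptors, fell by 0.68 in 8276KD (limma, adjusted p = 2.37e-07) and by 1.03 in 5NC (adjusted p = 8.87e-10), from a mean of 27.6 in 3NC to 16.9 and 13.0. Sh3kbp1, a CBL-binding adaptor of receptor endocytosis, fell by 1.08 (adjusted p = 5.8e-08) and 1.18 (adjusted p = 3.95e-09) in the same comparisons. Hgs, an endosomal sorting protein, fell by 0.40 in 8276KD (adjusted p = 0.00417), and Grb10 rose by 0.27 (adjusted p = 0.000127). Against 5NC the direction in 8276KD turned for Lrig1 (0.35) and Grb10 (-0.22). Hgs was again lower (-0.39), and Sh3kbp1 did not pass the test (0.10).

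Genes of the ERK response and its feedback followed the ligands between the control groups. Of 18 tested, 2 were higher and 13 lower in 5NC than in 3NC (all genes 30.6% and 25.9%), with a median of -0.73 against 0.022 over all genes. Fosl1 fell by 3.56 (limma, adjusted p = 8.67e-11), from a mean of 31.0 to 1.72, and Etv4 fell by 2.82 (adjusted p = 3.42e-12), from 31.3 to 3.59. Phlda1, Egr1 and the ERK phosphatase Dusp6 fell by 1.27, 1.09 and 0.91.

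In 8276KD against 3NC, 1 of these 18 genes was higher and 12 were lower (all genes 20% and 19.5%, median -0.39), led among those named by Fosl1 (-1.78, limma, adjusted p = 3.23e-07) and Egr1 (-1.72, adjusted p = 9.28e-11). Against 5NC the same list had 9 higher and 4 lower (all genes 24.7% and 30.5%, median 0.25), with Etv4 at 1.90 and Fosl1 at 1.78 but Egr1 at -0.62. In 8276OV against 5NC, 3 were higher and 8 lower (all genes 30.3% and 44.1%, median -0.099), Dusp5 falling by 0.97 (adjusted p = 3.5e-06) and Dusp6 rising by 0.36 (adjusted p = 0.000122). That balance turned to 6 higher and 4 lower after quantile normalization (all genes 4428 and 3997 of 11360). After GC correction it was 10 and 5 (all genes 3115 and 3020 of 11197). Against 3NC, 2 were higher and 15 lower (all genes 33.5% and 41.7%, median -0.90). Dusp6 in 8276OV was then lower (-0.54) and Dusp5 again lower (-1.01).

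The other receptor tyrosine kinases serve as a comparison for the EGF receptors. Of 20 tested, 0 were higher and 14 lower in 8276OV than in 5NC (all genes 30.3% and 44.1%, median -0.34), with Fgfr1 falling by 1.12 (limma, adjusted p = 2.28e-07), Ptk7 by 0.82 and Ddr1 by 0.73. After quantile normalization 3 were higher and 12 lower (all genes 4428 and 3997 of 11360). After GC correction 2 were higher and 5 lower (all genes 3115 and 3020 of 11197), with Fgfr1 at -0.67, Ptk7 at -0.18 and Ddr1 at -0.061. In 8276KD against 3NC, 3 were higher and 5 lower (all genes 20% and 19.5%): Met, the hepatocyte growth factor receptor, fell by 0.44 (adjusted p = 0.000118) and Mst1r rose by 0.53 (adjusted p = 0.00163). Between 5NC and 3NC, 9 were higher and 3 lower (all genes 30.6% and 25.9%).

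**Figure D4:**
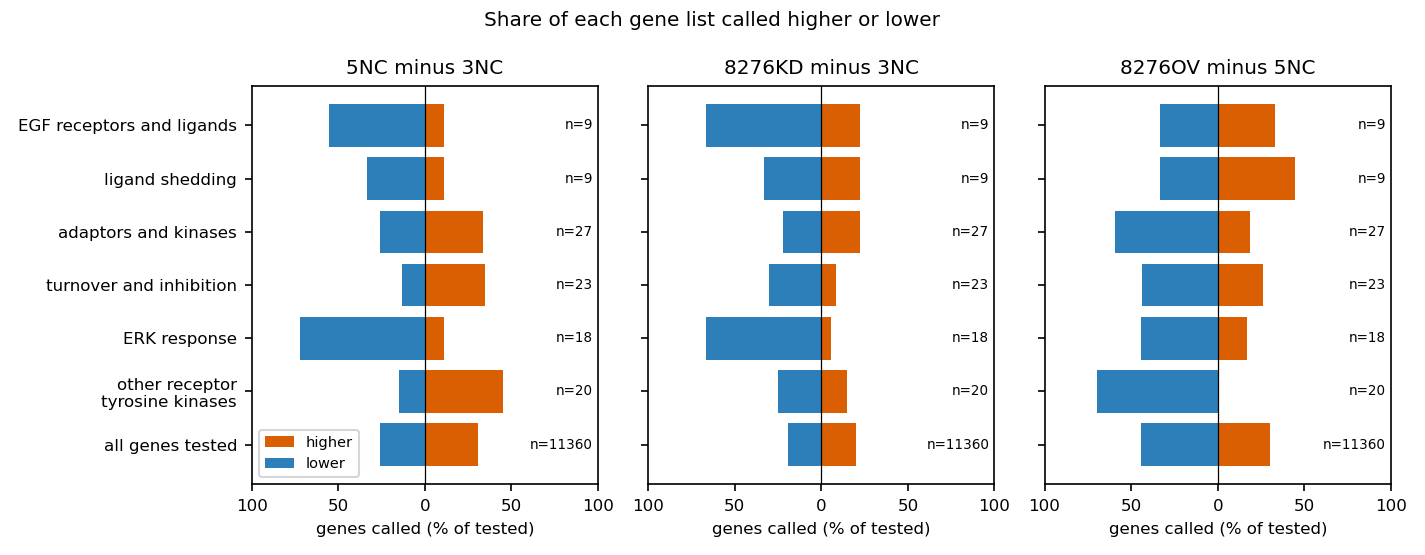
Percent of the tested genes of each list called higher (right of 0) or lower (left of 0) in 3 comparisons (x axis), with the number tested beside each bar and all tested genes at the bottom. In 5NC minus 3NC, 13 of 18 ERK response genes and 5 of 9 genes of the group are lower, against 25.9% of all genes. Those 5 are Areg, Ereg, Hbegf, Tgfa and Errfi1, with no receptor among them. In 8276OV minus 5NC, 14 of 20 other receptor tyrosine kinases are lower, against 44.1% of all genes. After GC correction, not drawn here, 2 of the 20 were higher and 5 lower (all genes 3115 and 3020 of 11197).

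The genes most like Areg, Ereg and Hbegf in pattern were sought among the 11359 other genes tested, by the root mean square difference of centred log2(value + 1) over the 12 libraries. For Areg, Scd1 (0.15) and the predicted gene Gm43828 (0.17) ranked first, and Ereg ranked 46th and Hbegf 99th. For Ereg they were Esd (0.15), Lrp8 (0.16) and Gm10410 (0.16), with Hbegf at rank 28 and Areg at rank 105. For Hbegf they were Scd2 (0.089), Ugdh (0.091) and Btg2 (0.095), with Errfi1 at rank 74, Ereg at rank 304 and Areg at rank 3022. The libraries share depth and group, and the likeness is a description with no test.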

How the data were processed

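Total RNA of C18-4 cells was sequenced in 12 libraries, 3 in each of the 4 groups, and samples were grouped by the treatment label. The authors deposited a table of 17576 genes with a value per library, which was read here as FPKM because of the range and steps of its values. The unit is named nowhere in the labels or the header, and TPM cannot be told apart from it with certainty. Per the submitters' processing notes, the build was mm10. Aligner, quantifier, annotation and treatment of strand were not given in the sources used here. The values carry 2 decimals, and a 0 can be rounding or a failed estimate.

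The 11360 genes that reached 1 in 3 or more libraries were tested as log2(value + 1) with limma 3.58.1 in R 4.3.3, in a joint fit of all 12 libraries with a mean per group, with trend and robust set in eBayes. Two-sided p-values were adjusted after Benjamini and Hochberg over these genes, and a gene was called at an adjusted p below 0.05. The fit was tested on simulated data. The members and lists were chosen with earlier results of these data known, and are no independent support. Lists held 191 genes, 183 of them in the table. Fragment estimates come from the smallest step between values of single-transcript genes. GC content came from the longest GENCODE M21 transcript, and a natural spline (5 degrees of freedom) was fitted and removed per library over 11197 tested genes. Promoter sequences and coordinates are from RefSeq (GRCm38.p6, the assembly of mm10), which held entries for 7 of the 10 members.

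The text names all 10 members, Erbb4, Egf and Nrg1, and, from each pathway list, genes among up to 4 with the smallest adjusted p in each manipulation and the 3 highest receptor kinases. It also names the 3 highest genes of each marker list, germ cell markers as a check of the cell type, Mien1 as an overlapping gene, and the 3 genes most alike to the 3 most variable members. Of the genes this rule named, 2 are not reported here. Alternatives were a pseudocount of 0.1, no filter, quantile normalization, equal library sums, GC correction, fits of only the groups compared, a replicate block, other controls and leaving out each library.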

Additional observations from a re-analysis of the deposited data

Results flagged for a closer look

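For 8 genes the overexpression effect (8276OV minus 5NC) and the knockdown effect (8276KD minus 3NC) differed by limma's test of the difference itself. The overexpression effect was higher for Areg (difference 1.114 on the log2 scale), Hbegf (0.712), Ereg (0.677), Egfr (0.583) and Errfi1 (0.458). It was lower for Erbb2 (-0.81), Erbb3 (-0.573) and Tgfa (-0.357). After GC correction the difference for Tgfa read -0.218 and no longer passed the test, and those for Erbb2 (-0.336) and Ereg (0.382) shrank but passed. Over all genes 60.6% passed this test, and each arm has its own control group.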

How the results depend on the processing

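Of 549 alternative values of the 9 genes tested, 487 kept their direction and their side of the threshold, 31 lost the call, 7 gained one and 24 turned direction. For 5NC against 3NC, every value but that of Erbb3 after GC correction kept both. Most turns came from the other control. In 8276OV with 3NC as control, Areg read -1.67, Ereg -1.05, Hbegf -0.73 and Errfi1 -0.46, and with 3NC and 5NC together -0.76, -0.32, -0.20 and -0.14. In 8276KD with 5NC as control, Erbb2 read -0.094, Areg 0.86, Ereg 1.21, Hbegf 0.68, Tgfa 0.15 and Errfi1 0.34, and with both controls Ereg read 0.47, Hbegf 0.15, Tgfa 0.018 and Errfi1 0.027. With both controls 4 of the 9 genes were called in 8276KD, against 8 with 3NC alone. Over all 11360 genes, 2356 were called higher and 2782 lower with both controls, and 2267 and 2210 with 3NC alone. Quantile normalization turned the uncalled values of Egfr (0.055) and Btc (0.17) in 8276OV, and GC correction turned the difference of effects for Btc (-0.008). Outside the tally, GC correction turned Erbb2 in 8276OV against 3NC (-0.21 to 0.28, called both times). It also turned the uncalled values of Erbb2 in 8276KD against 5NC (0.057) and Btc in 8276OV against 8276KD (-0.16). Leaving out a library moved Btc in 8276OV between -0.071 (without 5NC replicate 2) and 0.093 (without 5NC replicate 1), and it was above 0 also without 8276OV replicate 1 (0.018) or 2 (0.006). The cause was not tested.

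Leaving out each library gave 6 genes called throughout for 5NC against 3NC and for 8276KD against 5NC, 6 to 8 for 8276KD against 3NC, 5 to 6 for 8276OV against 5NC, 7 to 8 for 8276OV against 3NC and against 8276KD, and 8 to 9 for the difference of effects. Over all 11360 genes this gave 3125 to 3520 higher and 4656 to 4976 lower for 8276OV against 5NC. For 8276KD against 3NC it gave 1749 to 2532 higher and 1665 to 2476 lower. For 5NC against 3NC the counts were 3078 to 3112 and 2512 to 2593, and for 8276KD against 5NC 2428 to 2961 and 2997 to 3648. For 8276OV they were 3513 to 3828 and 4436 to 4764 against 3NC, and 3039 to 3450 and 3953 to 4403 against 8276KD. The difference of effects gave 2477 to 2931 and 3795 to 4256. Replicate numbers gave no pairing common to all groups. Deviations of libraries with the same number correlated from -0.254 to 0.59, with 2 of 18 pairs over 0.1. Those with unlike numbers correlated from -0.602 to 0.359, with 11 of 36 over 0.1. The 2 pairs were 8276KD with 8276OV for replicates 1 (0.467) and 2 (0.59), while replicate 3 read 0.029. Whether these 2 groups share a factor by replicate was not tested. With the replicate number as a block, 6 genes were called in 8276OV against 5NC, 6 in 8276KD against 3NC (2 higher and 4 lower), 6 in 5NC against 3NC, 8 in 8276OV against 3NC, 6 in 8276KD against 5NC, 8 in 8276OV against 8276KD and 8 for the difference of effects. Over all 11360 genes the block gave 3435 higher and 4972 lower in 8276OV against 5NC. It gave 2236 and 2198 in 8276KD against 3NC, and 3469 and 2911 in 5NC against 3NC. In 8276OV against 3NC it gave 3779 and 4717, and in 8276KD against 5NC 2800 and 3444. In 8276OV against 8276KD it gave 3373 and 4331, and for the difference of effects 2753 and 4080. Under the block Ereg (-0.26, limma, adjusted p = 0.0641) and Btc (-0.32, adjusted p = 0.056) no longer passed in 8276KD. The calls of Ereg and Btc there were also lost with no filter, quantile normalization, equal library sums and a fit of only the groups compared. Depth limits Epgn, Areg in 5NC and 8276OV, and Btc.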
